A study of Homo sapiens with 4 samples.

Results

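The 2 untreated MDA-MB-231 samples of a series of 4 were described on their own, as the baseline on which the series tests the secreted glycoprotein LRG1. MDA-MB-231 is an established human triple-negative breast cancer line that lacks the estrogen and progesterone receptors and ERBB2 amplification. Both samples, replicates 2 and 3, were cells kept for 24 h in RPMI medium with fetal bovine serum and L-glutamine and no added protein. The other 2 samples had received 100 ng/mL of recombinant human LRG1 (rhLRG1), shared the arrays with the untreated samples and were not compared with them here. According to the series design the replicates were grown and harvested independently, 1 replicate per array, so each value below rests on 2 cultures of 1 line. Untreated RNA was labelled with 1 and the same dye throughout, so an effect of the dye on these signals cannot be told apart from the level of the transcripts.

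Each array was a spotted cancer gene array with 3840 spots, of which 3786 belonged to 1856 gene probes and 54 were named as control oligonucleotides. Most probes (1849) were printed as 2 spots. Net intensity is the mean foreground of a spot minus its mean background, averaged over the spots of a probe. A percentile gives a probe's place among the 1856 gene probes of 1 array, with the brightest near 100. A probe was placed in the bright set where it lay above percentile 75 on both arrays, and in the dim set where it lay below percentile 25 on both.

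On a spotted array, labelled cDNA binds to DNA printed at fixed places, and the light from each spot rises with the amount of matching transcript. It also depends on how well the printed sequence hybridises and on how much DNA the spot holds. The order of different genes on such an array is therefore an order of signal, and the values below are signals. Mesenchymal-like breast cancer lines such as this one are known for vimentin, CD44 and EGFR expression and for little expression of luminal keratins and hormone receptors. As in any bulk sample, fewer cells that use a gene and less RNA per cell cannot be told apart.

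Signal was wide in range and close between the 2 cultures. The median net intensity over gene probes was 489 in untreated replicate 2 and 386 in untreated replicate 3, and the values at percentiles 10 and 90 were 119 and 3648 in replicate 2 and 110.1 and 2970.4 in replicate 3. The median foreground was 11.8 times the local background in replicate 2 and 8.71 times in replicate 3. Of the 3786 gene spots, 3785 in replicate 2 and 3781 in replicate 3 exceeded the background by more than 2 of its SDs, and 1851 of the 1856 probes did so in every spot of both arrays. Signal was concentrated, with the brightest 10% of the probes holding 61.1% of the summed net intensity in replicate 2 and 63.5% in replicate 3.

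Across 1855 probes, log2 net intensity in the 2 samples had a Pearson r of 0.97, and over all 1856 probes the Spearman rho was also 0.97. These are descriptions, since the points share the 2 arrays, their print layout and their probes, and genes are not independent replicates. After each array was centred on its median, a probe's 2 values lay 1.20-fold apart at the median, 84.3% of the probes agreed within 1.5-fold, and 81 probes were more than 2-fold apart. The pooled SD between the 2 samples was 0.33 on the log2 scale. The 2 spots of a probe on the same array lay 1.40-fold apart at the median in replicate 2 and 1.35-fold in replicate 3. These are gaps between single spots at different places. The gap between the samples is one between means over spots at the same places, so the 2 kinds of gap are not alike.

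**Figure D1:**
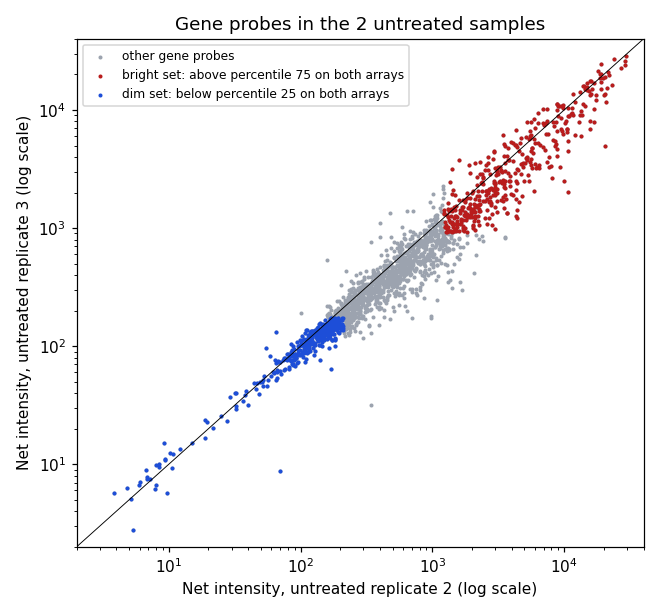
Net intensity of the gene probes in untreated replicate 2 (horizontal axis, log scale) and untreated replicate 3 (vertical axis, log scale), each point a probe and the line marking equal values. Red points are the 405 probes of the bright set, blue points the 408 of the dim set, and 1 probe with a value below 0 (IFNG, replicate 3) cannot be drawn.

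The bright set held 405 of 1856 probes (21.8%), and the dim set held 408 (22%). Near the top stood ITGA2B, the integrin subunit of the platelet fibrinogen receptor, with 28821 in replicate 2 and 26019 in replicate 3, and WIPF1, which binds the actin regulator WASP, had 29156 and 24242. VAV3, an exchange factor for small GTPases, followed with 23937 and 26796. ITGA2B and WIPF1 are best known for their roles in blood cells.

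Further genes of the upper end act at the cytoskeleton, the nucleus or in metabolism. MARCKS, an actin-binding substrate of protein kinase C, had 21653 in replicate 2 and 20904 in replicate 3. CNN1, the smooth muscle calponin, had 21888 and 19684, and CDC42SE1, a small effector of the GTPase CDC42, had 19805 and 18829. MAX, the partner through which MYC binds DNA, had 18037 and 21286. IFIT3, an interferon-induced antiviral protein, had 18981 and 24409. Other probes among the 15 brightest were ZC4H2, GPD1, the cyclophilin PPIE, metallothionein MT3, a probe named 1-Dec whose name cell had been altered by a spreadsheet and whose description reads deleted in esophageal cancer 1, and a probe with no gene name (NM_006787). All 15 lay above percentile 90 on both arrays.

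The lower end mixed signalling, cell cycle and immune genes. PDCD6, a calcium-binding protein linked to apoptosis, had 5.32 in replicate 2 and 2.76 in replicate 3. GUK1, the guanylate kinase that recycles GMP, had 3.85 and 5.73. CD74, the invariant chain of MHC class II, had 5.18 and 5.05, and APC, the tumour suppressor that limits beta-catenin, had 4.79 and 6.27. These values lay far below those of the control oligonucleotide spots, whose median was 115 in replicate 2 and 113 in replicate 3.

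TPX2, which assembles the mitotic spindle, had 6.82 and 7.50, and DBF4, the activator of the replication kinase CDC7, had 8.07 and 9.87. Both are genes that dividing cells are known to use. MAP3K7 (TAK1), a kinase of the TGF-beta and NF-kappaB routes, had 8.07 and 6.64, and the bone transcription factor RUNX2 had 6.84 and 7.86. The other dimmest probes were the laminin receptor subunit ITGA7, the transcription factor CUX1, BRD2, the steroid dehydrogenase HSD17B2, CBLC, RAB33A and an unnamed probe (NM_021730). All 15 lay below percentile 10 on both arrays.

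Neighbours in this order did not differ beyond the spread between the samples. In none of the 14 neighbouring pairs among the 15 brightest probes, and in none of the 14 among the 15 dimmest, did the mean log2 values differ by more than 2 of the pooled SDs. That SD is taken over all probes, and ranked neighbours are close by construction. The first and the last lay only 1.56-fold apart among the brightest and 2.33-fold among the dimmest. No probe that would have ranked among either 15 had spots more than 4-fold apart.

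**Figure D2:**
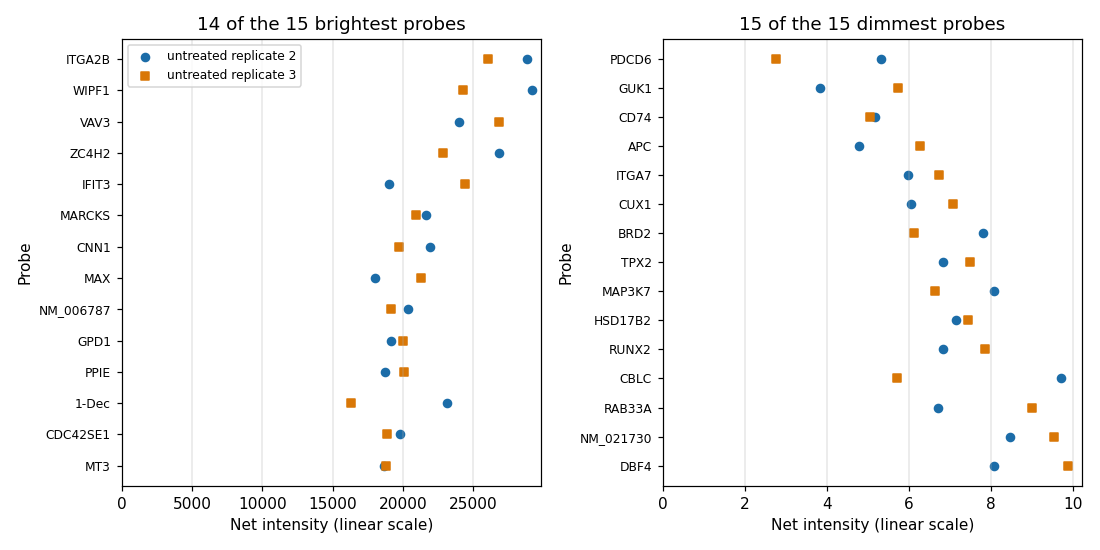
Net intensity (linear scale) of 14 of the 15 brightest probes (left) and the 15 dimmest probes (right), with 1 circle for untreated replicate 2 and 1 square for untreated replicate 3 in each row. The brightest lie between 16276 and 29156 and the dimmest between 2.76 and 9.87, and most neighbouring rows overlap.

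The promoters of 4 of these genes are shown to set what lies upstream of a bright and a dim probe side by side. They are the 2 brightest and the 2 dimmest of the named probes that have an entry in the RefSeq promoter table used here (GRCh38.p14), each with 250 bases before and 50 after the gene's start, 5′ to 3′ on the gene's strand, and CG dinucleotides in capitals. ITGA2B lies at chr17:44389600-44389899 on the minus strand and WIPF1 at chr2:174682864-174683163 on the minus strand, while PDCD6 lies at chr5:271396-271695 and GUK1 at chr1:228139834-228140133, both on the plus strand.
ITGA2B: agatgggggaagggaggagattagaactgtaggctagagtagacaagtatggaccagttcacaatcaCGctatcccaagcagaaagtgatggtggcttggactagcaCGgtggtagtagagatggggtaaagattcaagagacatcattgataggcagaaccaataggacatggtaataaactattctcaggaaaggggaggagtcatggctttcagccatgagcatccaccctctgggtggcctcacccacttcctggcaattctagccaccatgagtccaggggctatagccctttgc
WIPF1: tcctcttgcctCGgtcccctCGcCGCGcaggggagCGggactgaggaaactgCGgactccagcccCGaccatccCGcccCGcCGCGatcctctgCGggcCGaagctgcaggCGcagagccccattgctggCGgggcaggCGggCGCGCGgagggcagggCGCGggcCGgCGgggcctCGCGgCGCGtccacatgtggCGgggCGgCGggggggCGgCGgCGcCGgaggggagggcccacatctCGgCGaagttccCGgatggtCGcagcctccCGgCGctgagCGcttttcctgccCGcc
PDCD6: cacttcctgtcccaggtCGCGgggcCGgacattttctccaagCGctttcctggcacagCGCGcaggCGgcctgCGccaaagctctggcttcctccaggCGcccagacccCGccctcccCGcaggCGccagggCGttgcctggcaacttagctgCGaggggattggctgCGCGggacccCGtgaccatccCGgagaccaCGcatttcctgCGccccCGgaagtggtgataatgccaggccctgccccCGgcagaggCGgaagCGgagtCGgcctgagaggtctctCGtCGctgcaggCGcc
GUK1: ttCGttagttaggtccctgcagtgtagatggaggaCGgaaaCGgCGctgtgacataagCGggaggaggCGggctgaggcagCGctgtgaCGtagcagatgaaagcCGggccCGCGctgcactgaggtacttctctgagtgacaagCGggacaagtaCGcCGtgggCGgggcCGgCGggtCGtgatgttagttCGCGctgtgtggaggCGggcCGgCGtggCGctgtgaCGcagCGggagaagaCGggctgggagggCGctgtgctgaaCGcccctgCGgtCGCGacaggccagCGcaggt
The bright ITGA2B promoter held 2 CG dinucleotides and the bright WIPF1 promoter 42, whereas the dim PDCD6 and GUK1 promoters held 28 and 33. The same lack of order held over the 1356 genes matched to the table. The median number of CG dinucleotides was 24 in 311 genes of the bright set, 23 in 298 genes of the dim set and 22 in the 747 between them. Median promoter GC content was 64.3%, 64% and 63.3% in the same 3 sets, and the Spearman rho between mean percentile and CG count was 0.03. The letters TATAAA stood within 50 bases before the start, on the gene's strand, in 4.82% of the bright set, 6.04% of the dim set and 4.82% of the genes between them, against 5.09% of all matched genes and 2.92% of all 27305 promoters of the table.

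The label of the cells was then set against defining markers. Of 9 markers fixed for the line and for mesenchymal cells, 6 were measured. CD44, the hyaluronan receptor, had 7045 in replicate 2 and 7449 in replicate 3 and lay at percentiles 94.4 and 95.7. EGFR, the epidermal growth factor receptor, had 13358 and 6045, at percentiles 97.6 and 94.7. Both were in the bright set.

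Vimentin (VIM), the mesenchymal intermediate filament, had 647 and 353 and lay mid-scale, at percentiles 58.9 and 46.8. Caveolin CAV1 had 109 and 73.6 and lay in the dim set, at percentiles 7.84 and 4.12. AXL, a receptor tyrosine kinase, had 223 and 434. SPARC, a matrix protein, had 555 and 717, with spots 4.75-fold apart in replicate 2 and 7.34-fold in replicate 3. Thus 2 of the 6 line markers were in the bright set and 1 was in the dim set, against 21.8% and 22% of all probes.

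Markers of other cell types were spread over the scale. Of 37 such markers 17 were measured, 3 in the bright set and 4 in the dim set, against 21.8% and 22% of all probes. Their median percentile was 41.2 in replicate 2 and 46.0 in replicate 3. A difference of these few markers from the shares of all probes was not tested. Among luminal genes, the progesterone receptor PGR was dim with 178 and 153, and keratin KRT19 had 237 and 180. ERBB2, not amplified in this line, had 1864 and 1475 and lay in the bright set, and ERBB3 had 617 and 470. The estrogen receptor and E-cadherin were not among the named probes.

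MLANA, a melanocyte antigen, had 2489 in replicate 2 and 3129 in replicate 3, at percentiles 85.7 and 90.3. CD3G of the T-cell receptor complex had 24.97 and 25.6, although its 2 spots differed more than 5-fold. The collagen COL3A1 had 51.3 and 49.4 and the endothelial cadherin CDH5 had 113 and 104, both in the dim set. The other 8 markers (TP63, CD3D, MS4A1, PTPRC, CD14, CD33, MPO and COL1A1) lay between 207 and 501 in replicate 2 and between 180 and 411 in replicate 3, none of them in either set. On this scale CD44, EGFR, PGR, CD3G, COL3A1 and CDH5 lay where the label would put them, and CAV1, ERBB2 and MLANA did not.

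The 9p21 region, which holds the CDKN2A tumour suppressor and is known to be deleted in MDA-MB-231 and so to give no transcript, was covered by 2 probes. MTAP, a purine salvage enzyme of that region, had 223 in replicate 2 and 200 in replicate 3, at percentiles 27.0 and 29.4. CDKN2B, an inhibitor of CDK4 and CDK6, had 120 and 135. Both values exceeded the control oligonucleotide medians of 115 and 113, by little for CDKN2B. The type I interferon genes lie in the same part of the genome, and their 8 probes had the lowest median of the 43 gene lists, at percentiles 17.2 in replicate 2 and 22.2 in replicate 3. None was in the bright set and 5 were in the dim set (62.5%), against 21.8% and 22% of all probes, and after each spot was divided by the median of its row on the print block 2 of the 8 were dim. The 5 included IFNB1 with 158 and 155, IFNA21 with 40.3 and 32.0 and IFNA8 with 54.2 and 96.0. The upper members were IFNW1 with 605 and 254 and IFNA14 with 501 and 213.

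Genes that every cell uses did not collect at the bright end. The 26 ribosomal protein probes had median percentiles of 49.8 and 48.8, with 6 in the bright set and 4 in the dim set, shares of 23.1% and 15.4% against 21.8% and 22% of all probes. FAU, which encodes a small-subunit ribosomal protein fused to a ubiquitin-like protein, had 8865 in replicate 2 and 11215 in replicate 3, and RPL5 had 8219 and 5555. RPS6, the ribosomal protein phosphorylated by S6 kinase, had only 21.8 and 20.2. The 10 probes of translation factors and their regulators lay low, with median percentiles of 29.9 and 27.8. None was in the bright set and 5 were in the dim set (50%), against 21.8% and 22% of all probes. EIF3E had 55.3 and 46.0 and EIF1AX 105 and 81.1, while PABPC1, the poly(A)-binding protein, had 1272 and 779 and the kinase EIF2AK2 (PKR) had 2070 and 413.

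The reference genes lay mid-scale. ACTB, averaged over 10 spots, had 1017 in replicate 2 and 923 in replicate 3, at percentiles 70.6 and 75.1. GAPDH, also over 10 spots, had 401 and 344, at percentiles 44.2 and 45.8. The transferrin receptor TFRC, with 170.5 and 143, was in the dim set.

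Chaperones lay high. Their 5 probes had median percentiles of 83.2 and 77.9. Of them 3 were in the bright set (60%) and none in the dim set, against 21.8% and 22% of all probes. After division by the row median 2 were bright and none dim. The inducible HSP70 gene HSPA1A, whose signal a near-identical copy (HSPA1B) can share, had 16016 in replicate 2 and 13548 in replicate 3, the endoplasmic reticulum chaperone HSP90B1 had 6257 and 3317, and the constitutive HSPA8 had 2045 and 1057. The small heat shock protein HSPB1 had 266 and 240.

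The 12 replication and S phase probes had median percentiles of 76.3 and 64.6, with 5 in the bright set (41.7%) and 1 in the dim set (8.33%), against 21.8% and 22% of all probes. Since 8 of the 12 lay in print rows 3 and 4, the counts were also taken after each spot had been divided by the median of its row, and were then 2 bright and 2 dim. Thymidine kinase TK1 had 9050 and 10866, the replicative helicase subunit MCM2 had 5721 and 4733, and topoisomerase TOP2A had 2577 and 1084. PCNA, the sliding clamp of the DNA polymerases, had 1374 and 938. POLD1, the catalytic subunit of polymerase delta, was the dim member.

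Cyclins, CDKs and mitosis genes were spread over the scale, with median percentiles of 48.1 and 54.1. Of 28 probes 6 were bright (21.4%) and 7 dim (25%), near the 21.8% and 22% of all probes. CDKN1A (p21), the CDK inhibitor induced by p53, had 6910 in replicate 2 and 10291 in replicate 3. The mitotic kinase AURKB had 2921 and 2512. CDK1, which drives entry into mitosis, had 75.5 and 62.4, and CDK7 had 98.7 and 92.4.

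DNA repair genes were the largest list and lay low. Their 53 probes had median percentiles of 34 and 31.3, with 6 in the bright set (11.3%) and 18 in the dim set (34%), against 21.8% and 22% of all probes. The scaffold XRCC1 had 10.3 in replicate 2 and 12.4 in replicate 3, FANCF of the Fanconi anaemia complex had 65.0 and 72.1, and RAD50 of the MRN complex had 81.5 and 64.2. The mismatch repair gene MSH6 and the DNA-dependent kinase PRKDC were also in the dim set. At the other end, the base excision glycosylase NTHL1 had 10508 and 6860.

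Among secreted factors, the 14 interleukin probes had median percentiles of 67.2 and 67.5 with members at both ends. IL1B, the inflammatory cytokine, had 11604 in replicate 2 and 13556 in replicate 3, and IL11 had 5219 and 4027. IL6 had 2947 and 2138, with spots over 4-fold apart on at least 1 array. The T-cell cytokines IL2, with 94.9 and 84.5, and IL13, with 96.6 and 99.96, were in the dim set with IL18 and IL12A. Of 11 chemokine ligands, CXCL1 had 2543 and 2067 and was bright, whereas CXCL8 had 147 and 127 and was dim. VEGFA, the angiogenic growth factor, was among the dimmest probes of the array with 9.35 and 10.8.

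Matrix proteases and their inhibitors had 10 of 23 probes in the dim set (43.5%) and 4 in the bright set (17.4%), against 22% and 21.8% of all probes, with median percentiles of 37.4 and 40.7. Cathepsin CTSZ had 8520 and 4917 and the inhibitor TIMP3 had 5884 and 5672. MMP14, the membrane-bound collagenase activator, had 159 and 146 and MMP16 had 87.5 and 71.2. Integrins spanned the whole array, with ITGA2B as given, ITGA3, a laminin receptor subunit, at 10733 in replicate 2 and 4472 in replicate 3, and ITGA7 at 5.97 and 6.73.

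Signalling and transcription genes covered the full range. The 30 transcription factor proto-oncogenes had median percentiles of 50.6 and 49.97. Each set held 8 of them (26.7%), against 21.8% and 22% of all probes. RELB, a subunit of the non-canonical NF-kappaB complex, had 16709 in replicate 2 and 16888 in replicate 3, whereas NFKB1, the precursor of the canonical p50 subunit, had 103 and 86.5. STAT5B, a transducer of cytokine and prolactin signals, had 90.9 and 85.1. The 22 RAS and MAPK probes lay lower, with median percentiles of 36.7 and 36.9. Of them 4 were bright (18.2%) and 3 dim (13.6%), against 21.8% and 22% of all probes, and after division by the row median 2 were bright and 5 dim. The p38-activating kinase MAP2K3 had 17553 and 12080, and the small GTPase RALA had 46.7 and 49.1.

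Among chromatin genes the 18 probes had 3 bright and 3 dim members (16.7% each), against 21.8% and 22% of all probes. The architectural protein HMGA1 had 3122 and 3283, and SMARCB1, a core subunit of the SWI/SNF remodelling complex, had 29.1 and 36.9. In energy metabolism, hexokinase HK2 had 10765 and 10429, and the glucose transporter SLC2A1, which feeds it, had 89.5 and 94.3. Survival genes were split in the same way. The anti-apoptotic BIRC5 (survivin) had 1919 and 1601 and was bright, while MCL1, also anti-apoptotic, had 140 and 156 and the pro-apoptotic BAX had 173 and 144, both dim.

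The lists of cytochrome P450 genes, of glutathione and metallothionein genes and of ABC transporter genes had median percentiles below the middle on both arrays. The 15 cytochrome P450 probes had median percentiles of 37.0 and 37.3, led by aromatase CYP19A1, which makes estrogens, with 1634 and 1086, and by CYP1A1, whose spots lay over 4-fold apart. CYP2A6, a liver enzyme, had 59.5 and 56.2. The glutathione transferase GSTA2 had 9874 and 10994 and GSTM1 had 87.6 and 82.2. None of the 11 ABC transporter probes was bright, and 3 were dim (27.3%), against 21.8% and 22% of all probes. After division by the row median the median percentile of the ABC transporter probes was 53.9, above the middle, against 46.0 before.

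Lists of other lineages were mixed. The 7 erythroid and platelet probes had median percentiles of 84.0 and 78.6. ITGA2B, the platelet glycoprotein GP9 (2264 and 1721) and thrombopoietin THPO were in the bright set (42.9%) and none was in the dim set. The shares of all probes were 21.8% and 22%. The 10 neural probes had 4 bright (40%) and none dim, against 21.8% and 22% of all probes, but 4 bright and 2 dim after division by the row median. They were led by tau (MAPT) with 9384 and 6924 and by the adhesion molecule L1CAM with 5542 and 5823. Of the 6 melanocyte probes 3 were bright (50%) and 1 dim (16.7%), against 21.8% and 22% of all probes. After division by the row median 3 were bright and 2 dim. MITF, the master regulator of melanocytes, had 14971 and 16815, while TYRP1 had 152 and 144. The 9 placental hormone and pregnancy probes had 2 bright and 2 dim (22.2% each), near the shares of all probes. Growth hormone GH1, which shares much of its sequence with GH2, had 15704 and 17455. Of the 13 myeloid and granulocyte probes 3 were bright (23.1%) and 2 dim (15.4%). The macrophage receptor CSF1R had 11390 and 9341, while FLT3 had 119 and 108. Desmin (DES), the muscle intermediate filament, had 32.6 and 29.3. The 19 T-cell and B-cell probes had median percentiles of 31.3 and 33.2. Of them 2 were bright (10.5%) and 6 dim (31.6%), against 21.8% and 22% of all probes. The row division left 2 bright and 6 dim. The 10 endothelial probes had 5 dim (50%) and 1 bright (10%), the adhesion molecule MCAM with 6956 and 4869. Of the 43 lists, 32 had members in both sets.

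**Figure D3:**
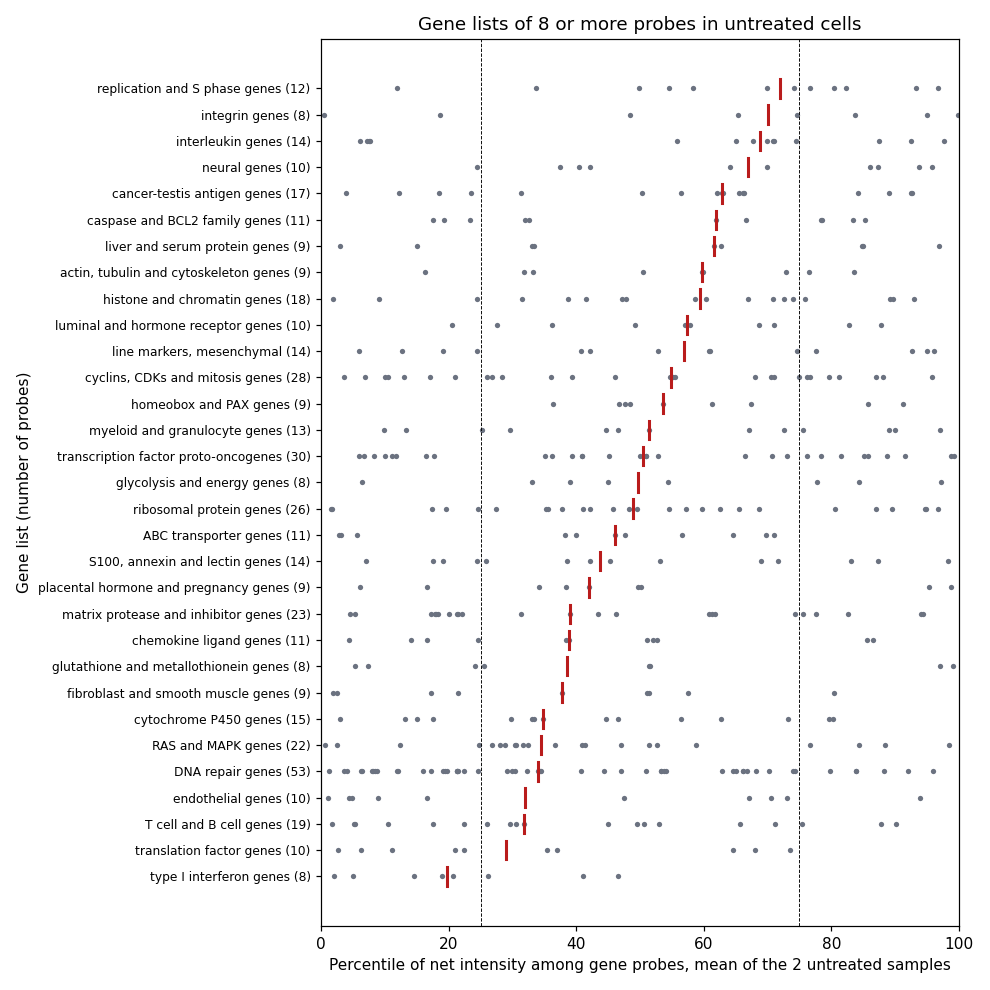
Percentile of net intensity, averaged over the 2 untreated samples (horizontal axis), for each probe (grey points) of the 31 gene lists with 8 or more probes, with the list's median as a red bar and dashed lines at percentiles 25 and 75. Medians run between 19.7 for type I interferon genes and 72.0 for replication and S phase genes, and most lists spread over much of the scale.

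The route through which LRG1 is known to act, TGF-beta signalling with the co-receptor endoglin, was looked up after the values had been seen. Its 9 named probes had median percentiles of 23.6 in replicate 2 and 30.04 in replicate 3. Of them 1 was in the bright set and 3 were in the dim set, against 21.8% and 22% of all probes. A difference of these few probes from those shares was not tested. TGFBR2, the ligand-binding receptor, had 2539 and 3396, and ACVRL1 (ALK1), the type I receptor that works with endoglin, had 1027 and 924. Endoglin (ENG) had 145 in both samples. The shared signal transducer SMAD4 had 147 and 135 and SMAD2 had 167 and 123, all 3 in the dim set. The ligand TGFB1 had 203 and 175, and LRG1 itself was not among the named probes.

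The same gene could be bright or dim according to the probe. For 12 genes the array held more than 1 probe, 25 probes in all, and the probes of a gene differed 8.36-fold at the median in replicate 2 and 5.53-fold in replicate 3. ABL2, a non-receptor tyrosine kinase, had 10200 and 7709 on 1 probe (NM_007314) and 124 and 107 on the other (NM_005158), so that 1 probe was in the bright set and the other in the dim set. IFI6, an interferon-induced mitochondrial protein, had 20719 and 11647 on 1 probe and 560 and 223 on the other.

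BRCA1 had 1237 and 832 against 212 and 139, and N-cadherin (CDH2) had 5580 and 3871 against 513 and 763. BCL2 and DNA ligase LIG3 were the closest, with probes 2.21-fold and 1.71-fold apart in replicate 2 and 1.14-fold and 1.25-fold apart in replicate 3. In 7 of the 12 genes the probes differed by more than 5-fold on both arrays. The probes of a gene carry different accessions, some of them of transcript variants, and a difference between variants and one between the printed sequences cannot be told apart.

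**Figure D4:**
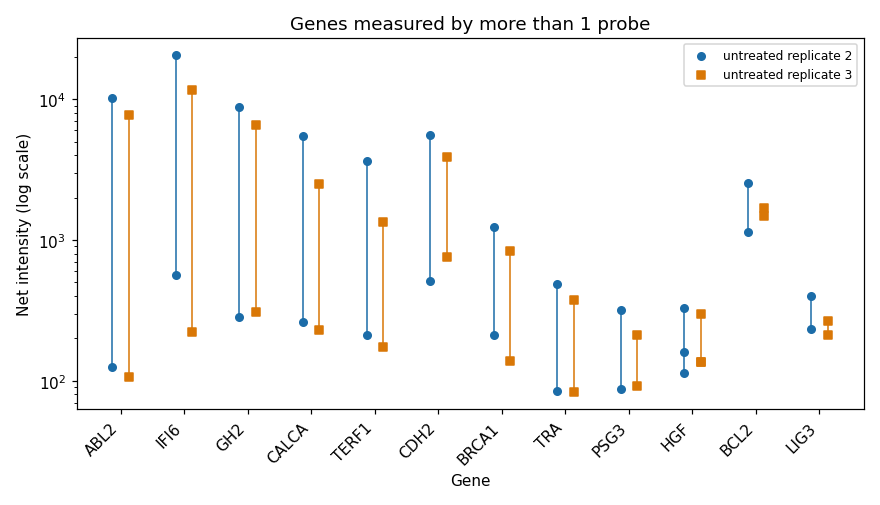
Net intensity (log scale) of each probe of the 12 genes measured by more than 1 probe, with circles for untreated replicate 2 and squares for untreated replicate 3 and a line joining the probes of a gene on 1 array. The ABL2 probes lie 82.1-fold apart in replicate 2 and 72.1-fold in replicate 3, and the gaps are alike on both arrays for most genes.

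A single probe printed at several places could differ as much. PDSS2, a subunit of the enzyme that makes the coenzyme Q side chain, had 4 spots under 1 accession. In 1 block they read 20213 and 17317 in replicate 2 and 17671 and 16445 in replicate 3, and in another block 137 and 115 in replicate 2 and 129 and 110 in replicate 3. ETV7, an ETS-family transcription factor, had its 2 spots 1626-fold apart in replicate 2 and 998-fold in replicate 3. The detoxifying enzyme NQO1 had spots 54.3-fold and 49.9-fold apart. The 2 arrays thus gave the same spot the same low or high reading, and the mean of such a probe follows its bright spot. Spots more than 4-fold apart, or a spot below its background, were found in 90 probes (4.85%).

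Probes printed 10 or 20 times in print rows 1 and 5 varied less than PDSS2, ETV7 and NQO1, but their ranges were still wide. GAPDH ranged between 193 and 556 over its 10 spots in replicate 2 and between 226 and 580 in replicate 3. ACTB ranged between 349 and 1818 in replicate 2 and between 464 and 1628 in replicate 3. The ribosomal protein gene RPL15, over 20 spots, ranged between 1255 and 7281 in replicate 2 and between 438 and 8399 in replicate 3. These ranges are 5.80-fold and 19.2-fold. An unnamed probe, also over 20 spots, ranged between 278 and 3579 in replicate 2 and between 250 and 2088 in replicate 3.

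Brightness moved with the place of a probe on the array. Each of the 24 print blocks has 10 rows, and the 2 spots of a probe lie 5 rows apart, so that a probe belongs to row 1, 2, 3, 4 or 5. Probes of rows 3 and 4 had a median net intensity of 823 in replicate 2 and 632 in replicate 3, against 349 and 299 for rows 1, 2 and 5. By the mean of their row medians, rows 3 and 4 were brighter in 24 of 24 blocks in replicate 2 and in 23 of 24 in replicate 3. Of the 759 probes in rows 3 and 4, 34% were in the bright set and 12.6% in the dim set, against 13.3% and 28.6% of the 1090 probes in the other rows. Among the 15 brightest probes 11 came from rows 3 and 4, and among the 15 dimmest none did. The part of the row in each gene's level was not tested.

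The layout also followed the genome, and chromosomes differed in brightness. Over 1775 probes placed on 23 chromosomes, the median percentile was 69.4 for chromosome 22, 65.1 for chromosome 15 and 62.8 for chromosome 20, against 36.8 for chromosome 2, 37.3 for chromosome 8 and 38.7 for chromosome 9. On chromosome 22, 38.6% of 44 probes were in the bright set and 4.55% in the dim set, and on chromosome 9, 15.2% and 38.0% of 79. None of the probes of chromosomes 8 and 9 with 2 spots lay in rows 3 and 4, whereas 84.1% of those of chromosome 22 did. Across the 23 chromosomes the share of probes in rows 3 and 4 and the median percentile had a Spearman rho of 0.84, given as a description since both come from the same layout. Within rows 1, 2 and 5, the 16 chromosomes with 20 or more probes there had medians between 31.1 and 47.7. After each spot was divided by the median of its row, the medians of the 23 chromosomes lay between 24.3 and 60.9. Within rows 1, 2 and 5, chromosomes 8 and 9 had medians of 37.1 and 38.7, inside the 31.1 to 47.7 of the 16 chromosomes. Across chromosomes with probes in both groups of rows, the medians of rows 3 and 4 and of the other rows had a Spearman rho of -0.22. The part of the chromosome in these values was not tested.

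**Figure D5:**
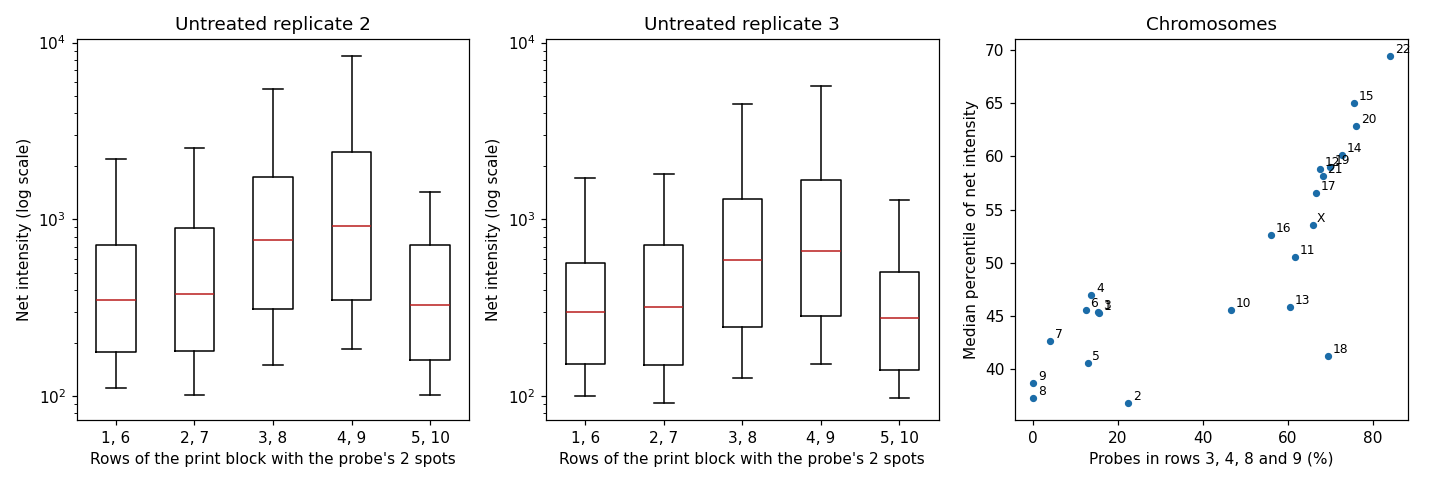
Net intensity (log scale) of probes with 2 spots by their rows in the print block, for untreated replicate 2 (left) and untreated replicate 3 (middle), with boxes from the lower to the upper quartile, red lines at the median and whiskers at the 10th and 90th percentiles. On the right, each point is a chromosome, with the share of its probes in rows 3, 4, 8 and 9 on the horizontal axis and its median percentile on the vertical axis, and chromosome 22 lies at 84.1% and 69.4.

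List values changed with this layout. All 8 type I interferon probes lay outside rows 3 and 4, and their median percentile was 27.4 once each spot was divided by the median of its row, against 19.7 before, with 2 of 8 dim against 5 before. With the same division the cancer-testis antigen genes, 17 probes of germline genes that tumours can express, had 44.0 against 62.8, the liver and serum protein genes 48.8 against 61.6, and the T-cell and B-cell genes 40.1 against 31.7. The DNA repair genes moved little, to 31.6 against 33.9, with 19 of 53 dim and 6 bright, and the translation factor genes to 29.8 against 28.9. The translation factor genes then had 1 bright and 4 dim, the ABC transporter genes 1 bright and 3 dim, the endothelial genes 2 bright and 4 dim, and the matrix proteases and inhibitors 4 bright and 8 dim. The chaperones had 74.8 against 80.5 and the interleukins 74.9 against 68.8.

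A few probes differed between the 2 cultures. IFNG, the type II interferon, had 1526 in replicate 2 and a value below 0, -1595, in replicate 3, where 1 of its 2 spots read a foreground of 674 over a local background of 5345. The neighbouring spot of GPRC5A, a receptor induced by retinoic acid, also lay below its background there, and the probe had 341 and 31.7. RSRC2, a serine- and arginine-rich protein, had 160 in replicate 2 and 532 in replicate 3, and the sarcosine dehydrogenase SARDH had 1676 and 299. The NKG2D ligand ULBP3 had 971 and 182, with spots 5.44-fold apart in replicate 2, and an unnamed probe (NM_005758) had 969 and 173. In all, 22 probes lay more than 25 percentile points apart, and with 1 culture on each array no test of these gaps is possible.

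The control oligonucleotide spots give a scale for the dim end. Of the gene probes, 160 (8.62%) lay below the control median on both arrays, among them TPX2, VEGFA, XRCC1, RPS6, CDK1 and CAV1. All 54 control spots nevertheless exceeded their background by more than 2 SDs on both arrays, and the highest read 1247 in replicate 2 and 723 in replicate 3. The labels and the study's methods do not say which sequences the control oligonucleotides match.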

How the data were processed

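Per the labels and the study's methods, the authors hybridised labelled cDNA from untreated and rhLRG1-treated cells to 2 spotted 2-colour arrays, analysed ratios in genArise with default parameters and called changes from Z-scores. R 4.2.2 appears in the processing notes of the submitters. The deposited files give, per spot, the mean foreground and background intensity of each channel, the SD of the background, a net intensity and ratios of the channels. Only the untreated channel was used. The deposited log2 values of the untreated samples and the columns of ratios between channels were not used for results.

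Net intensity was recomputed as foreground minus background, averaged over the spots of an accession, with no normalization between arrays and control oligonucleotide spots left out. It equalled the deposited net intensity except for 2 spots below background, deposited as 0. Of 1856 probes, 1701 were named by accession, 60 by symbol, 15 by synonym and 5 by the name in the file, while 75 stayed unnamed. The named probes were the 15 brightest and 15 dimmest by net intensity over the array median, within the bright or dim set and with spots within 4-fold, plus the markers, those among the 2 brightest and 2 dimmest of each list, the largest gaps between arrays and spots, ACTB and GAPDH. A few of these are not reported here. Other list members named were chosen after their values were seen. No test between groups was made. The ranking code was tested on simulated data. The simulated spots had less spread than the real ones and no effect of print row, so that test cannot show how reliable the ranking is here. The members and gene lists were chosen with earlier results of these data known. Python 3.11.15, pandas 2.3.3, R 4.3.3 and limma 3.58.1 (normexp, offset 50, an alternative) were used. With 2 arrays, their number limits the precision.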

Additional observations from a re-analysis of the deposited data

Results flagged for a closer look

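The control oligonucleotide spots, which enter no gene's value, gave signal: 54 of 54 exceeded the local background by more than 2 SDs in untreated replicate 2 and 54 of 54 did in untreated replicate 3. Their net intensity ran between 25.1 and 1247 in replicate 2 and between 21.8 and 723 in replicate 3. The source of this signal was not tested.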

How the results depend on the processing

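Across the alternatives that change the averaging of spots, the background, the filter or the scaling by position, the bright set held 386 to 412 probes and the dim set 391 to 422, and the Spearman rho between the samples stayed between 0.96 and 0.97. With 1 array alone each set held 464 probes, and with the outer 10% in place of 25% the sets held 159 and 163. All 15 brightest probes stayed in the bright set under every alternative, the outer 10% included, and so did the dimmest that could be ranked (13 of 15 where probes with a spot under background plus 2 SD were left out). The median percentile of the T-cell and B-cell genes, 31.7, was 35.3 with the dimmer spot only, 33.4 after division by the median of the print block and 40.1 after division by the median of the print row, and 31.3 to 33.2 with 1 sample left out. That of the ribosomal protein genes, 48.8, was 46.2, 49.6 and 52.1 under the same 3 settings and 48.8 to 49.8 with 1 sample left out. Division by the print row was added after seeing the data. It shared 325 of 405 bright probes and 316 of 408 dim probes with the reported sets and moved 9 of 43 list medians across 50, whereas the background corrections moved none across. The cause was not tested. Gene probes with every spot above background numbered 1851 at 2 SDs, 1844 at 3 SDs and 1790 where the foreground had to exceed 2 times the background. No paired analysis was possible because only untreated samples were described and no groups were compared.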
